A study of Rattus norvegicus with 4 samples.

Results

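Aquaporins are channel proteins through which water crosses cell membranes. Some of them, the aquaglyceroporins Aqp3, Aqp7 and Aqp9, also pass glycerol and other small uncharged solutes, and Aqp8 and others are known to pass hydrogen peroxide. In the colon, which takes up most of the water that reaches it, surface epithelial cells carry several aquaporins, while Aqp1 is the channel of endothelial cells and red blood cells. Their expression was examined in colon tissue on 4 one-color NimbleGen arrays. The family was taken as 10 genes, Aqp1 to Aqp9 and Aqp11, found by matching the RefSeq accession of each row of the deposited table to a current gene symbol. Of these 10 genes, 7 (Aqp1, Aqp3, Aqp4, Aqp7, Aqp8, Aqp9 and Aqp11) had an intensity on each array, among 18350 measured rows in all, and each of them had 1 row. Aqp2, Aqp5 and Aqp6 had rows that were blank on every array, as were 27.9% of the curated (NM) rows of the table. The lens aquaporin Mip, Aqp10 and Aqp12a were not matched to a row and were not analysed here.

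The animals were male Sprague Dawley rats, 2 in the control group and 2 in the mesenchymal stem cell transplantation (MSCT) group, with 1 array per rat. Rats of the MSCT group had received TNBS in ethanol into the colon lumen, which induces a colitis used as a model of inflammatory bowel disease (IBD), and then GFP-labeled mesenchymal stem cells (MSCs) by the tail vein. The control group did not receive MSCs. Its sample descriptions call these animals normal, whereas the paper calls them IBD rats, and normal rats had saline in the colon in place of TNBS, so an effect of MSCs and one of the colitis cannot be told apart if the controls were normal. The day of sampling is given differently in different parts of the paper, no age is given, and the pieces were taken from the lesion region of the colon. In such bulk tissue, more cells of a type and more RNA per cell cannot be told apart. The array medians differed by at most 0.07 on the log2 scale, and the median SD between replicates was 0.47 in the dimmest and 0.14 in the brightest 25% of rows.

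Marker genes of colon epithelium and muscle were compared between the groups. Of 13 genes of a colon epithelium list, 10 were measured, among them Car4, Slc26a3, Krt20, Cdx2, Epcam and Lgals4. Of these 10, 9 were higher and 1 lower in the MSCT group (median log2 difference 0.19), 0 with an unadjusted p under 0.05. Of the named genes, 55.8% were higher. In 6 both MSCT arrays lay above both control arrays and in 0 below, against 27.6% and 20.2% of the named genes. With 2 arrays per group, a p above 0.05 does not show an equal epithelial content. Car1, Vil1 and Cdx1 were not matched to a row. The smooth muscle list, a measure of the muscle wall, lay at a median difference of 0.02 over 5 genes, with 0 genes at an unadjusted p under 0.05.

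Aqp1, the water channel of vascular endothelium and red blood cells, had the largest difference of the 7 measured aquaporins. Aqp3, the aquaglyceroporin of the basolateral membrane of colonic surface cells, was also higher in the MSCT group, and Aqp8, a channel of the colonic surface epithelium, lay somewhat lower. The stretches of 250 bases before the RefSeq start of these 3 genes are shown first, because they are the genes of the family that stood higher in the MSCT group with an unadjusted p under 0.05 and the single one whose MSCT arrays both lay below the control arrays. They were taken from RefSeq on the rat assembly GRCr8 and are written from 5′ to 3′ on the strand of the gene, at chr4:85812534-85812783 (plus strand) for Aqp1, chr5:61040684-61040933 (minus strand) for Aqp3 and chr1:187424193-187424442 (plus strand) for Aqp8. Capitals mark matches to the motifs named in the next paragraph.
Aqp1: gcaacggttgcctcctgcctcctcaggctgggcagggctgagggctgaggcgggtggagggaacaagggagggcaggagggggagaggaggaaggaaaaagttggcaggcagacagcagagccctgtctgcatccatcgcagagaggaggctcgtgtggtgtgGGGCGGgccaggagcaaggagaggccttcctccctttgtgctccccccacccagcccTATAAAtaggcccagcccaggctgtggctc
Aqp3: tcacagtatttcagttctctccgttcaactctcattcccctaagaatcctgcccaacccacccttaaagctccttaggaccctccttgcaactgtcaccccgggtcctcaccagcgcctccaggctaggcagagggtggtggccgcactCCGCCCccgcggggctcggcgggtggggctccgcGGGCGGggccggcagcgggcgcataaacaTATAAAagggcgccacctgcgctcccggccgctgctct
Aqp8: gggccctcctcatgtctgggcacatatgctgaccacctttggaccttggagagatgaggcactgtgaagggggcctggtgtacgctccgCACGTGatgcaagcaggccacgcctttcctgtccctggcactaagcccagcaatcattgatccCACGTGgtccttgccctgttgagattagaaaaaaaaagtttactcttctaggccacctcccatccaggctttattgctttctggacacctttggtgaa

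In these windows, 6 short motifs were searched on both strands: the TATA box (TATAAA), the GC box (GGGCGG), the CCAAT box (CCAAT), the E-box (CACGTG, its own reverse complement), a core of the glucocorticoid receptor element (TGTTCT) and a core of the tonicity element (TGGAAA). No matches overlapped. Aqp1 and Aqp3 each held a TATA box, 30 and 38 bases before the start, and GC boxes, 1 in Aqp1 and 2 in Aqp3. Of all 33469 RefSeq windows of the same length, 12.9% held a TATA box and 30.5% a GC box. Aqp8 held neither, and had 2 E-boxes, 161 and 98 bases before the start. An E-box was present in 5.59% of all windows, and 2 or more in 0.43%. The CCAAT box, the glucocorticoid receptor core and the tonicity core had 0 matches in the 3 windows, and were found in 34.0%, 17.5% and 19.7% of all windows. These matches are a description of the letters and not evidence of binding.

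For Aqp1 (NM_012778), control replicates 1 and 2 had an intensity of 1052 and 1083, and MSCT replicates 1 and 2 of 3077 and 2417. Both MSCT arrays were thus far above both control arrays, which lay close together. On the log2 scale, the mean was 10.06 ± 0.03 (SD, n = 2) in the control group and 11.41 ± 0.25 (SD, n = 2) in the MSCT group. MSCT exceeded control by 1.35 (standard error 0.22, 95% interval 0.78 to 1.93), or 2.55-fold. In the limma fit over all rows, the unadjusted p was 0.00226 and the adjusted p was 0.260. Aqp1 was the single aquaporin to pass the screen of the study (fold change over 2 and an unadjusted p under 0.05), which 2.12% of all measured rows passed as higher and 2.51% as lower in the MSCT group (3.13% and 1.78% of the 6963 named genes, from which the aquaporins and all lists were drawn). It also passed the screen by the methods' t-test (adjusted p = 0.463). That test is the one-way variance analysis of the methods for 2 groups, run on the log2 values. An exact permutation of 2 arrays against 2 can give no two-sided p under 0.333. Its adjusted p by limma was 0.0107 when the variance was allowed to depend on intensity, a fit in which 2.11% of all rows passed an adjusted p of 0.05, and 0.0228 without the dimmest 50% of rows, where 2.69% passed. Over the other alternatives, the adjusted p of Aqp1 lay between 0.0966 and 0.643.

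For Aqp3 (NM_031703), the intensity was 10861 and 9777 in the control group and 21838 and 14885 in the MSCT group. The MSCT arrays were both higher, but they differed from each other by 0.55 on the log2 scale, more than the control arrays (0.15). The log2 mean was 13.33 ± 0.11 (SD, n = 2) in the control group and 14.14 ± 0.39 (SD, n = 2) in the MSCT group. MSCT exceeded control by 0.81 (standard error 0.26, 95% interval 0.10 to 1.51), or 1.75-fold, so that Aqp3 stayed below the 2-fold limit of the screen. By limma its unadjusted p was 0.0326 and its adjusted p 0.374, and by the methods' t-test the p was 0.106 without adjustment. Without MSCT replicate 2 the difference was 1.08, and without MSCT replicate 1 it was 0.53, each with 1 array left in the MSCT group. With a variance that depended on intensity, the adjusted limma p of Aqp3 was 0.0498. Aqp1 and Aqp3 were thus 2 of the 7 measured aquaporins with an unadjusted p under 0.05 that were higher in the MSCT group, and 0 of 7 were lower with such a p, where the shares of all measured rows were 4.8% and 7.17%, and those of the named genes 6.82% and 5.44%.

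**Figure D1:**
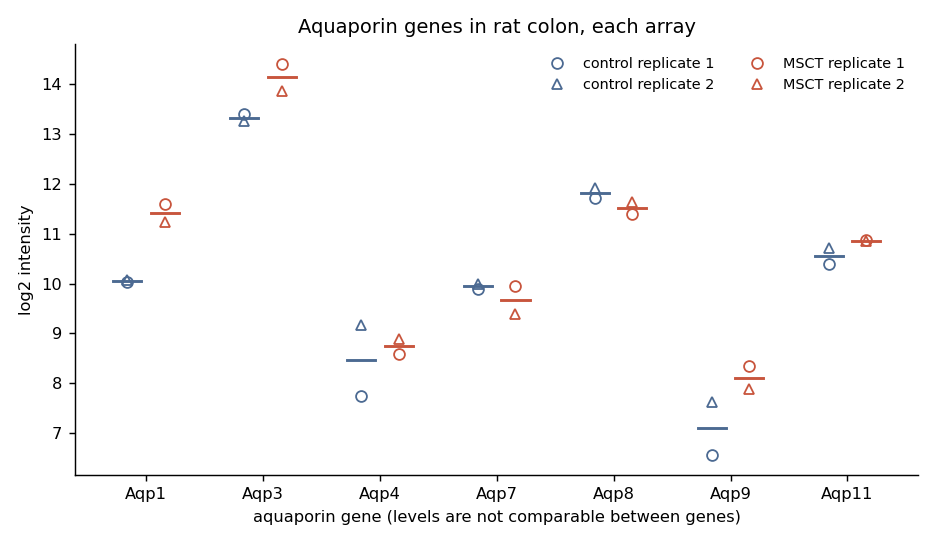
The log2 intensity (vertical axis) of the 7 measured aquaporin genes (horizontal axis) on each of the 4 arrays, with circles for replicate 1, triangles for replicate 2 and a bar at the mean of each group (control blue, MSCT red). The MSCT arrays lie above both control arrays for Aqp1, Aqp3, Aqp9 and Aqp11 and below them for Aqp8, and the control arrays are widely spread for Aqp4 and Aqp9.

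Aqp9, an aquaglyceroporin best known from liver and leukocytes, stood higher in the MSCT group but with a wide spread. Its row (NM_022960) read 94.1 and 198 in the control group against 327 and 235 in the MSCT group. Both MSCT arrays were higher, by at least 0.24 on the log2 scale, but the control arrays lay 1.08 apart, and the row belongs to the dimmest 25% of all rows. The difference of the log2 means was 1.02 (standard error 0.43, 95% interval -0.14 to 2.18; limma, adjusted p = 0.459), with an unadjusted p of 0.0715. From the means of the linear intensities it was 0.94, below the limit of 2-fold. Leaving out control replicate 1 gave 0.48, and leaving out control replicate 2 gave 1.56, each with 1 array left in the control group. S100a9, the single measured gene of 5 on a neutrophil list, differed by 0.54 (standard error 0.24), and S100a8 and Cxcr2 were blank.

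Aqp7, the glycerol channel of adipocytes and the neighbor of Aqp3 in the order of coding genes on chromosome 5 of GRCr8, had groups that overlapped. Its row (NM_019157) read 948 and 1021 in the control group against 987 and 668 in the MSCT group. MSCT replicate 1 lay between the control arrays and MSCT replicate 2 below them. The difference was -0.28 on the log2 scale (standard error 0.26, 95% interval -0.98 to 0.43; limma, adjusted p = 0.704), and 0.0048 without MSCT replicate 2. Of the adipocyte list, Adipoq and Lep were blank, and Cidec, Cfd and Fabp4 differed by 0.41, -0.85 and -0.04, 0 of 3 with an unadjusted p under 0.05.

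Aqp8 (NM_019158) had an intensity of 3384 and 3854 in the control group and of 2686 and 3189 in the MSCT group. Both MSCT arrays were lower, but the groups were only 0.09 apart on the log2 scale, less than the distance between replicates in either group (0.19 and 0.25). The log2 difference was -0.30 (standard error 0.21, 95% interval -0.86 to 0.25), and the limma p was 0.212 without adjustment and 0.601 with it. Aqp11, an unusual member that resides inside the cell in the endoplasmic reticulum, had an intensity (NM_173105) of 1351 and 1682 in the control group and of 1882 and 1842 in the MSCT group. The MSCT arrays were both higher and nearly equal, and the control arrays lay 0.32 apart on the log2 scale. Their log2 difference was 0.30 (standard error 0.21, 95% interval -0.25 to 0.86; limma, adjusted p = 0.601).

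Aqp4, the water channel of glia and of skeletal muscle and also of epithelia, could not be ordered between the groups. The intensity (NM_012825) was 216 and 573 in the control group and 387 and 471 in the MSCT group, so that both MSCT arrays lay between the control arrays. The difference was 0.28 on the log2 scale (standard error 0.51, 95% interval -1.09 to 1.65; limma, adjusted p = 0.850). It was -0.42 without control replicate 1 and 0.98 without control replicate 2. On an enteric glia list of 4 genes, all were measured and 0 had an unadjusted p under 0.05, with the glial filament gene Gfap at a difference of 1.06 (standard error 0.49). On a skeletal muscle list 6 of 8 genes were measured, and their summed intensity was 3589 and 2163 in the control group and 8083 and 5951 in the MSCT group. All 6 differences were above 0, with a median of 0.60, where 55.8% of the named genes were higher. Acta1, the actin of that muscle, passed the screen as higher (difference 2.06, standard error 0.42), as did 3.13% of the named genes. The actinin Actn3 differed by 0.71 with an unadjusted p under 0.05, and the other 4 lay between 0.06 (the creatine kinase Ckm) and 0.87 (the troponin Tnnt3). At such a limma p, 2 of the 6 genes were higher and 0 lower, against 6.82% and 5.44% of the named genes. Without Acta1 the summed intensity was 2310 and 1332 in the control group and 2070 and 2856 in the MSCT group, which overlap. The part of these cells in the values of Aqp4 was not tested.

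**Figure D2:**
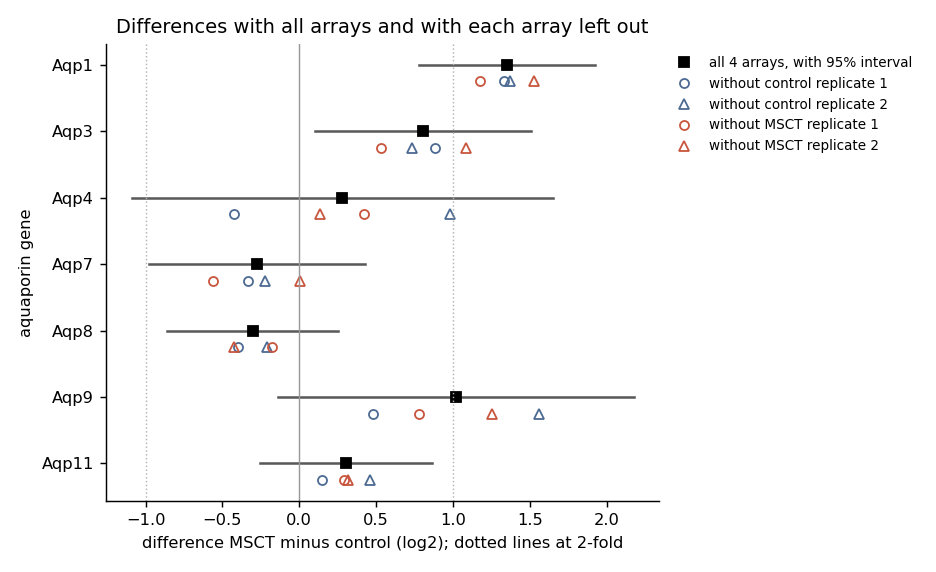
The difference of MSCT minus control on the log2 scale (horizontal axis) for each aquaporin gene (vertical axis), as black squares with 95% intervals of the limma fit, and with each array left out as open symbols below them. Aqp1 stays beyond the 2-fold line in every case (1.18 to 1.53), and Aqp4 lies on both sides of 0.

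Taking the family as a whole, 5 of the 7 measured genes were higher and 2 lower in the MSCT group, with a median log2 difference of 0.30, against -0.02 over all rows and 0.05 over the 6963 named genes. In 4 genes (Aqp1, Aqp3, Aqp9 and Aqp11) both MSCT arrays lay above both control arrays, where this was so in 21.3% of all rows and 27.6% of the named genes, and in 1 gene (Aqp8) both lay below, as in 24.5% of all rows and 20.2% of the named genes. Aqp2, Aqp5 and Aqp6, the 3 blank genes, follow each other on chromosome 7 of GRCr8 with 0 coding genes between them. Aqp2 is the vasopressin-controlled channel of the kidney collecting duct, Aqp6 an intracellular channel of the kidney, and Aqp5 the channel of salivary and other glands. A blank row gives no level, and no source used here tells how rows came to be blank.

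**Figure D3:**
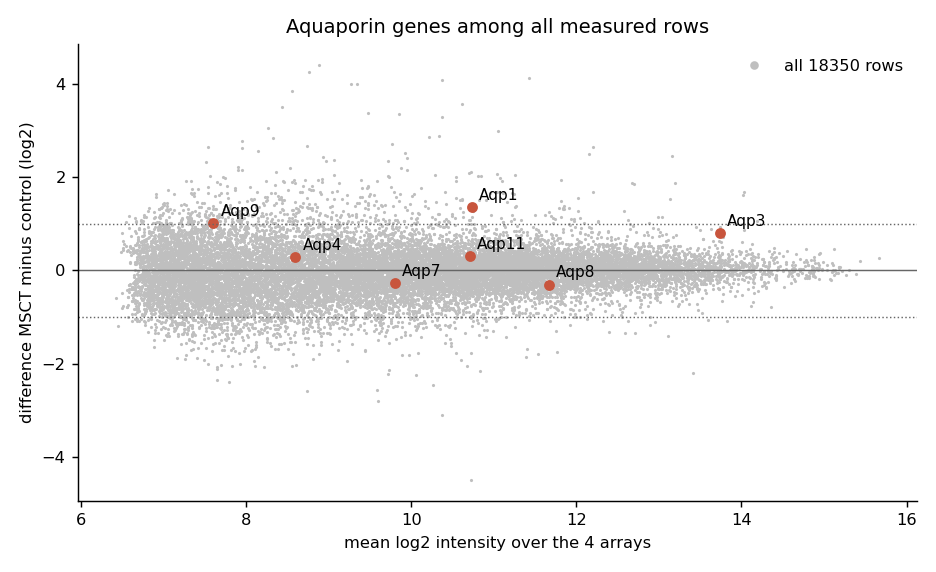
Each gray point is a row of the table, with its mean log2 intensity over the 4 arrays on the horizontal axis and the log2 difference of MSCT minus control on the vertical axis, and dotted lines mark 2-fold. The 7 aquaporins are marked in red, with Aqp1 above the 2-fold line and Aqp9, at a difference of 1.02, close to it among the dim rows.

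Since Aqp1 belongs to vessels and blood, the markers of both were set beside it. Of 10 endothelial genes 6 were measured, 5 higher and 1 lower, and their median log2 difference was 0.37. Of the named genes, 55.8% were higher, and 6.82% were higher with an unadjusted limma p under 0.05. Eng, the endoglin of endothelial cells, was higher in the MSCT group (difference 0.85, standard error 0.19, limma adjusted p = 0.298 and an unadjusted p of 0.00797), and the other 5 (Pecam1, Kdr, Flt1, Emcn and Esam) lay between -0.05 and 0.59 with no unadjusted p under 0.05. The summed intensity of the 6 genes was 5809 and 5074 in the control group and 5850 and 5984 in the MSCT group, where MSCT replicate 1 was close to control replicate 1. Cdh5, Tek, Tie1 and Vwf were not matched to a row.

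Globin genes of the red blood cell list were higher in the MSCT group. Of 8 genes 4 were measured, all 4 with a positive difference and a median of 0.94 on the log2 scale, where 55.8% of the named genes were higher. Hbb, a β-globin gene, differed by 1.18 (standard error 0.24) and passed the screen as higher, as did 3.13% of the named genes. The α-globin genes Hba-a1 and Hba-a2, near-identical copies whose probes may share signal, differed by 0.88 and 1.00. Alas2, the heme synthesis enzyme of erythroid cells, differed by 0.66, with overlapping groups (limma, adjusted p = 0.649). The summed intensity of the 4 genes was 9310 and 12734 in the control group and 22095 and 20388 in the MSCT group. Slc4a1 was blank, and Ahsp and Epb42 were not matched to a row. Msln and Wt1, markers of the mesothelium that covers the colon, differed by -0.49 and -0.34. The part of red blood cells, vessels or mesothelium in the difference of Aqp1 was not tested.

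**Figure D4:**
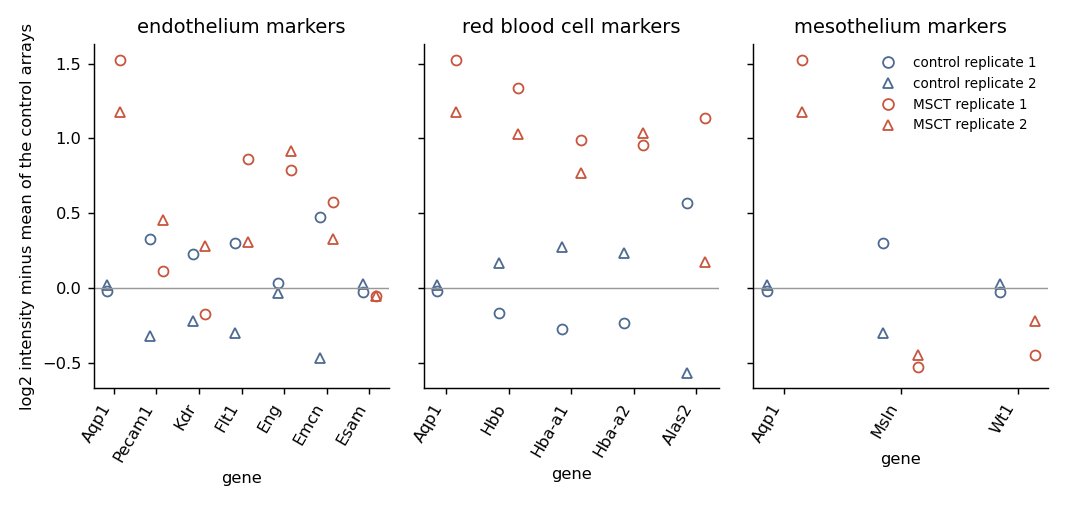
Aqp1 beside the measured markers of 3 cell types, with the log2 intensity of each array minus the mean of the control arrays on the vertical axis (control blue, MSCT red, circles for replicate 1 and triangles for replicate 2). Hbb, Hba-a1 and Hba-a2 are higher on both MSCT arrays as Aqp1 is. Of the 6 endothelial markers, Pecam1, Kdr and Emcn overlap between the groups. Both MSCT arrays lie above both control arrays for Eng and, by only 0.009, for Flt1, and below them for Esam. Of the named genes, 27.6% lie above and 20.2% below in this way.

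Other cell types of the wall were listed as well. Of the goblet cell list, 2 of 7 genes were measured, and both passed the screen as higher, as did 3.13% of the named genes: Zg16 (difference 2.65, standard error 0.26) and Tff3 (1.49, standard error 0.25). On the squamous epithelium list, which stands for tissue near the anus where Aqp3 is abundant in the epidermis, Krt5, Krt14, Krt13 and Trp63 were blank and Krt4 differed by -0.31. Actb, Gapdh, Hprt1 and B2m, used as reference genes, differed by 0.12, -0.19, 0.44 and -0.17, with 0 of 4 at an unadjusted p under 0.05.

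Of the 6962 other named genes, the 3 whose profile over the 4 arrays, centered on its mean, lay nearest to that of Aqp1 were Laptm5, Ncf1 and Tmem178a. The root mean square distance was 0.05, 0.07 and 0.07 on the log2 scale, and 49 genes lay within 0.2. Laptm5, a lysosomal protein of blood cells, stood at a log2 intensity of 8.87 and 8.99 in the control group and of 10.38 and 10.14 in the MSCT group. Likeness over 4 arrays is mainly likeness in 1 difference between groups.

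Genes that work with aquaporins were divided into 7 lists. In colonic epithelium, water follows salt, and in the list of salt transport 17 of 20 genes were measured, 12 higher and 5 lower, with a median log2 difference of 0.20. Of these, 0 passed the screen, and Scnn1a, the α subunit of the epithelial sodium channel, was the single gene with an unadjusted p under 0.05 (difference -0.73, standard error 0.21). Of the named genes, 5.44% were lower with such a p, and 55.8% were higher at any p. Slc9a3, the sodium-proton exchanger of the brush border, differed by 0.68, the chloride-bicarbonate exchanger Slc26a3 by 0.22 and the chloride channel Cftr by 0.38, none with such a p.

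Vasopressin and other hormones move aquaporins to the membrane through cyclic AMP. In this list 15 of 23 genes were measured, 5 higher and 10 lower, with a median of -0.15 and 0 past the screen. Vipr1, a receptor of vasoactive intestinal peptide in epithelium, and the adenylate cyclase Adcy3 were lower (differences -0.58 and -0.66), and the transcription factor Creb1 was higher (0.51), at an unadjusted limma p of 0.0429, 0.0391 and 0.0494. At an unadjusted limma p under 0.05, 1 of 15 was thus higher and 2 lower, against 6.82% and 5.44% of the named genes. Avp and the receptor Avpr2 were blank. Of the genes that bind aquaporins or carry them to the membrane, 16 of 26 were measured, 8 higher and 8 lower, with a median of 0.01 and 0 past the screen. Dmd, the dystrophin whose complex anchors Aqp4, was lower (difference -0.74, standard error 0.24, limma adjusted p = 0.380 and an unadjusted p of 0.0340) in its brighter row (NM_001005244). Its other row (NM_001005246) differed by -0.44 with an unadjusted p of 0.335. Dmd was the single gene of these 16 with an unadjusted limma p under 0.05.

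In the osmotic response list, 10 of 14 genes were measured, and 1 passed the screen in each direction. Of the named genes, 3.13% passed it as higher and 1.78% as lower. Slc6a6, the transporter of the osmolyte taurine, was 12.28 ± 0.22 (SD, n = 2) in the MSCT group against 11.15 ± 0.40 (SD, n = 2) in the control group, a log2 difference of 1.13 (standard error 0.28). Trpv1, a cation channel of sensory neurons, was lower by a difference of -1.73 (standard error 0.23). The kinases Sgk1 and Wnk1, which control salt transport, differed by -0.72 and -0.79, each with an unadjusted limma p under 0.05. At such a p, 1 gene of the list was higher and 3 were lower, against 6.82% and 5.44% of the named genes. The median of the list was -0.18.

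Hydrogen peroxide passes through several aquaporins, and in the list of its production and removal 19 of 20 genes were measured, 16 higher and 3 lower, with a median log2 difference of 0.30. Of the named genes as a whole, 55.8% were higher. In the list, 3 genes passed the screen as higher in the MSCT group, as did 3.13% of the named genes, and 0 as lower. They were Gpx3, a secreted glutathione peroxidase (difference 1.63, standard error 0.31), and Ncf1 and Cybb, subunits of the NADPH oxidase of phagocytes (1.24 and 1.23). The epithelial oxidase Duox2 differed by 0.76, the peroxiredoxin Prdx6 by 0.73 and the catalase Cat by 0.55, each with an unadjusted limma p under 0.05. At such a p, 6 of the 19 genes were higher and 0 lower, against 6.82% and 5.44% of the named genes. Nox1 was blank.

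Glycerol handling, which concerns Aqp3, Aqp7 and Aqp9, had 11 of 14 genes measured, 7 higher and 4 lower, with a median of 0.12 and 0 past the screen. Pparg, a nuclear receptor known to induce Aqp7 in fat, was higher at an unadjusted limma p of 0.0362 (difference 0.58). It was the single gene of these 11 with such a p under 0.05, where 6.82% of the named genes were higher and 5.44% lower. The glycerol kinase Gk differed by 0.0022 and the lipoprotein lipase Lpl by -1.10 (limma, adjusted p = 0.467). Urea and ammonia transport and the arginases had 4 of 7 genes measured, 0 of them past the screen, with a median of 0.0004. Arg1 and the urea transporter Slc14a1 differed by 0.36 and 0.24, and Arg2 and Rhbg, an ammonia channel, by -1.12 and -0.24. In the limma fit over all rows, 0 rows passed an adjusted p of 0.05, and 2196 had an unadjusted p under 0.05.

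**Figure D5:**
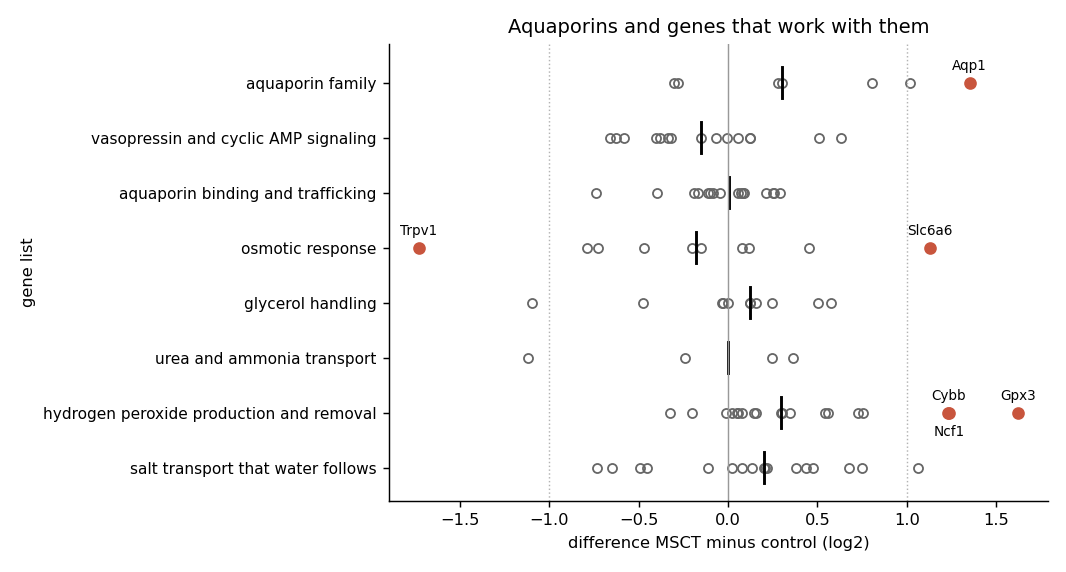
Log2 difference of MSCT minus control (horizontal axis) of each measured gene in the aquaporin family and in 7 lists of genes that work with it (vertical axis), with filled red points for genes past the screen and a black bar at the median of each list. The medians lie between -0.18 and 0.30, and the genes past the screen are Aqp1, Slc6a6, Trpv1, Gpx3, Ncf1 and Cybb.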

How the data were processed

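The authors labeled colon cDNA with Cy3, hybridized it to one-color NimbleGen arrays, scanned these with a GenePix scanner and extracted them with NimbleScan. The deposited table holds 1 linear intensity per RefSeq transcript and array. The submitters' processing notes name RMA without parameters, and the rule for the 8070 blank rows is not given in the sources used here. Precision is limited by the small number of arrays.

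Intensities were converted to log2 values without pseudocount, further scaling or filter. Groups were compared over all 18350 measured rows by lmFit and eBayes of limma 3.58.1 (R 4.3.3) with Benjamini-Hochberg adjustment, and the test was checked on simulated data. The series text describes the replicates as separate rats. Gene symbols came from RefSeq's gene table (GRCr8), matched without version numbers (38.5% of measured rows), and the row with the highest mean stood for a gene. Named are the 10 aquaporins, other family members, up to 3 genes past the screen per list and direction, 4 reference genes and the 3 nearest profiles. Any other list gene was picked with its value in view. The aquaporins and lists were chosen with earlier results of these data known. Alternatives covered scaling (quantile, equal medians), filters on dim rows, the variance model, weights for arrays, a replicate block, each array left out, a fold limit of 1.5, linear means, an adjusted p and the methods' t-test. Tables were made with pandas 2.3.3 and figures with matplotlib 3.10.9 under Python 3.11.15.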

Additional observations from a re-analysis of the deposited data

How the results depend on the processing

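Aqp1 passed the screen in each of its 13 recomputed fits (differences from 1.18 to 1.53). Of 88 recomputed fits of single aquaporins, 39 change only the error and not the difference. Of the 49 that could change the difference, 47 kept its direction. The exceptions were Aqp4, at -0.42 without control replicate 1 (-0.42 to 0.98 with each array left out), and Aqp7, at 0.0048 without MSCT replicate 2 (-0.56 to 0.0048). The count of aquaporins past the screen was 1, and 2 with a fold limit of 1.5 (Aqp1 and Aqp3). A fit with 1 array left out has 1 array in a group, and the differences depended on the array. That of Aqp9 was 1.56 without control replicate 2 and 0.48 without control replicate 1. That of Aqp3 was 1.08 without MSCT replicate 2 and 0.53 without MSCT replicate 1. Under an adjusted p of 0.05 in place of the screen, limma called 0 aquaporins and 0 of all rows, where 2 aquaporins and 2196 rows had an unadjusted p under 0.05. The methods' t-test also called 0 after adjustment, with 1 aquaporin and 1772 rows at an unadjusted p under 0.05. Over all rows the screen passed 850, 388 by the methods' t-test, 251 without the dimmest 50% of rows, 2019 with a fold limit of 1.5, and 934 to 1565 with each array left out. With the replicate number as a block, Aqp1 was again the single aquaporin past the screen, 971 rows passed it, and no call of the 7 aquaporins changed. The replicate numbers do not show which rats belong together. Replicates of the same number deviated together across rows with r = 0.23 (18350 rows, which are not independent). Each aquaporin had 1 row, so another choice of row could not be tried. Without the dimmest 25% of rows Aqp9 had no value, and without the dimmest 50% neither Aqp9 nor Aqp4 had. Signal over background is not given in the table, and the precision of Aqp9 and Aqp4 is limited by their dim rows.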
